A study of Mus musculus with 47 samples.

Results

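Expression of 34 genes of cholesterol synthesis and transport was followed in brainstem and hippocampus of wild-type and transgenic mice on a standard or a high fat diet. The members were taken from a list of symbols chosen by function, with earlier results of these data known, and were found through their Ensembl mouse gene identifiers. All 34 were present among the 33139 genes of the brainstem count table and the 31751 genes of the hippocampus table. All 34 also passed the filter of a mean count of at least 50, which left 13340 genes in brainstem, 13272 in hippocampus and 12619 in both.

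Male mice were of the strain C57BL/6. Transgenic mice (TG) were homozygous for a human transgene driven by the neuronal Thy1 promoter. Wild-type mice (WT) came from a separate colony of the same outcross, so the transgene and the colony cannot be told apart. Each genotype received a standard diet (SD) or a high fat diet (HFD) from weaning to about a year of age, and the brainstem sample was the medulla. Brainstem had 5 WT_SD libraries and 6 each of WT_HFD, TG_SD and TG_HFD, and hippocampus had 6 libraries in each of the 4 groups. Nothing in the labels says which libraries came from the same mouse, and p-values measure the spread between these samples.

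Total counts per library were 10020784 to 15078812 in brainstem and 11945971 to 17328447 in hippocampus. Summed markers of the medulla reached 331 to 573 CPM (TMM-normalised counts brought to a common library size) in brainstem and 0 to 0.505 in hippocampus, and those of the hippocampus 62.1 to 108 CPM in brainstem and 517 to 632 in hippocampus. Choroid plexus markers summed to between 12.1 and 3020 CPM in single brainstem libraries.

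Cholesterol does not cross the blood-brain barrier, so the brain makes its own, and much of it ends in the myelin sheaths that oligodendrocytes form. Acetyl-CoA units are joined and reduced to mevalonate, turned into isoprenoid units, condensed to squalene and closed to lanosterol, from which a series of oxidations and reductions leads to cholesterol. When the endoplasmic reticulum is low in sterol, SCAP carries the factor SREBP2 (Srebf2) to the Golgi, where its active part is released and enters the nucleus to switch on the genes of synthesis. INSIG proteins hold it back when sterol is plentiful. Surplus sterol activates liver X receptors such as LXR beta (Nr1h2), which turn on the exporters Abca1 and Abcg1 and the lipid carrier Apoe. Neurons also dispose of cholesterol as 24S-hydroxycholesterol, made by Cyp46a1.

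By role, 8 members act from acetyl-CoA to the isoprenoids (Acat2, Hmgcs1, Mvk, Pmvk, Mvd, Idi1, Fdps, Ggps1) and 11 from squalene to cholesterol (Fdft1, Sqle, Lss, Cyp51, Tm7sf2, Msmo1, Nsdhl, Hsd17b7, Ebp, Sc5d, Dhcr7). Together these are the 19 synthesis enzymes. Another 6 members are regulators (Srebf1, Srebf2, Scap, Insig1, Insig2, Nr1h2), and 9 serve transport, storage and removal (Stard4, Abca1, Abcg1, Apoe, Lrp1, Npc1, Npc2, Soat1, Cyp46a1). Fdps and Acat2 have near-identical copies in the mouse genome, and how reads shared between copies were counted is not given in the sources used here, so their levels are uncertain.

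The promoters of 4 enzymes are shown because their transcripts carry the results on library agreement or because they hold the motif searched. Msmo1 and Sc5d act late, on the methyl groups and on a ring double bond of the sterol, Idi1 makes the isoprenoid unit that starts condensation, and Hmgcs1 makes HMG-CoA. The sequences are the 250 bases before the RefSeq start of transcription on GRCm38.p6, read 5′ to 3′ on the strand of the gene. They lie at chr8:64733579-64733828 (minus strand, Msmo1), chr9:42264301-42264550 (minus strand, Sc5d), chr13:8885356-8885605 (plus strand, Idi1) and chr13:119690101-119690350 (plus strand, Hmgcs1). Capitals mark matches, on either strand, to the CCAAT box (CCAAT, or ATTGG on the other strand) and to a sterol regulatory element core, TCACNCCAC.
Msmo1: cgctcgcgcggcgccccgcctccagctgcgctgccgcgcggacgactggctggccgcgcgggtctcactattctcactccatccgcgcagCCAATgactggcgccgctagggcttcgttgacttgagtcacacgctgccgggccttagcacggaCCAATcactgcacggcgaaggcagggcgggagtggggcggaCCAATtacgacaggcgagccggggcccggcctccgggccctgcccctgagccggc
Sc5d: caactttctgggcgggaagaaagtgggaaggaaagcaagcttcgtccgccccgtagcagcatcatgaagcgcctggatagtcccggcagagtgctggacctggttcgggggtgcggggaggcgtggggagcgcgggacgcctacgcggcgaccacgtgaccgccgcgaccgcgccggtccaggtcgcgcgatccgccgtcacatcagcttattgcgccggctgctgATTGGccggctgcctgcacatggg
Idi1: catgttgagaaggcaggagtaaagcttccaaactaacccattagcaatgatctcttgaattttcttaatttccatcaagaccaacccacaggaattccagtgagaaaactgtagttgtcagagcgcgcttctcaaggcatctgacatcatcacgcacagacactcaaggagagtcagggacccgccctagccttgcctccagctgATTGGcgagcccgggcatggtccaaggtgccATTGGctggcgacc
Hmgcs1: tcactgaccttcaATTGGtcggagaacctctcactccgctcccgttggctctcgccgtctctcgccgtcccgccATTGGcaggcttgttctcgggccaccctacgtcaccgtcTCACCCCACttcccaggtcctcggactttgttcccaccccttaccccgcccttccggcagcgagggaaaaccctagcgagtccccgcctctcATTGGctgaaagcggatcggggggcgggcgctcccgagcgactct

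These stretches held 3 CCAAT boxes in Msmo1, 1 in Sc5d, 2 in Idi1 and 3 in Hmgcs1. Over windows from 250 bases before to 50 bases after the start, RefSeq entries were matched for 28 members with 38 promoters. A CCAAT box was present in 23 of these 38 promoters and in at least 1 promoter of 22 of the 28 members, and in 37.4% of all 32851 mouse promoters of the same length. The sterol regulatory element core as spelled was present in 1 of the 38, that of Hmgcs1, and in 1.24% of all promoters. The letters searched do not overlap with each other, and a match describes the sequence and not the binding of a factor.

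The largest differences in these genes were between the regions. Libraries of both regions were fitted in 1 model and scaled together, so CPM values in the next paragraphs differ slightly from those given within a region further on. Of the 34 members, 27 were lower and 5 higher in hippocampus at an adjusted p of at most 0.05 (edgeR's quasi-likelihood test), where the regions differed in most genes, with 44.9% of 13458 genes lower and 41.9% higher. With a log2 difference of at least 1, 5 members were lower and 1 higher, beside 8.86% and 9.56% of all genes. The median log2 difference, hippocampus minus brainstem, was -0.61 over the members and -0.02 over all genes.

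All 19 synthesis enzymes were lower in hippocampus. The median log2 difference was -0.62 for the enzymes up to the isoprenoids and -0.65 for those from squalene onward, -0.31 for the regulators and -0.04 for the transport genes. Among the enzymes, the values ran from -0.31 for Mvk and Mvd, the kinase and the decarboxylase of mevalonate, to -1.19 for Idi1.

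Idi1 had 87.8, 110 and 151 CPM (lowest, median and highest of 23 libraries) in brainstem and 38.9, 49.8 and 62.8 CPM in 24 libraries of hippocampus, a log2 difference of -1.19 (SE 0.0449). Cyp51, which removes a methyl group from lanosterol, had 88.5, 117 and 128 CPM in brainstem and 48.7, 56.5 and 61.2 in hippocampus, a log2 difference of -1.07 (SE 0.0295). In both enzymes no library of hippocampus reached the lowest one of brainstem.

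Insig1, which retains SREBP2 in the endoplasmic reticulum and is itself one of its targets, had the largest difference toward lower levels in hippocampus. It had 128, 158 and 179 CPM in brainstem and 45.8, 54.0 and 70.8 CPM in hippocampus (log2 difference -1.51, SE 0.0323). Stard4, a carrier of sterol between membranes, had 46.4, 55.9 and 66.6 CPM in brainstem and 16.7, 20.4 and 31.3 in hippocampus (log2 difference -1.43, SE 0.0385). Npc2, which hands cholesterol to Npc1 in the lysosome, had 97.9, 109 and 126 CPM in brainstem and 40.6, 46.7 and 58.6 in hippocampus (log2 difference -1.24, SE 0.0313). The ranges of the regions were separate in these 3 genes as well.

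Cyp46a1, the neuronal cholesterol 24-hydroxylase, went the other way. It had 28.1, 33.1 and 41.7 CPM in brainstem and 90.0, 102 and 123 CPM in hippocampus, a log2 difference of 1.61 (SE 0.0328). The other members that were higher in hippocampus were Srebf2 (log2 difference 0.54), its escort Scap (0.56), Abcg1 (0.31) and Apoe (0.33). Abca1 at -0.04 (adjusted p = 0.474) and the lipoprotein receptor Lrp1 at 0.12 (adjusted p = 0.0961) did not pass the test. Adjusted p-values of the 6 members with the largest differences were between 5.63e-29 and 1.54e-40 by edgeR's quasi-likelihood test. This fit treated all 47 libraries as independent, although libraries of both regions may come from the same mice.

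The libraries of both regions were without overlap in 24 of the 34 members, beside 35% of all genes. Per kilobase of exon (RPKM), Apoe was the most abundant member in both regions, at 324 in brainstem and 407 in hippocampus on average. Hmgcs1 came next with 61.1 and 40.1 RPKM. Insig1 was at 50.6 RPKM in brainstem and 17.9 in hippocampus, and Cyp46a1 at 10.3 and 31.5.

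Markers of some cell types moved with this result and those of others did not. Of the oligodendrocyte markers, 12 of 12 were lower in hippocampus past the same thresholds, with a median log2 difference of -2.09, and their summed level was 13600 to 22300 CPM in brainstem and 3160 to 5000 CPM in hippocampus. Endothelial markers were lower at an adjusted p of at most 0.05 in 6 of 6 cases, with a median of -0.67, a summed level of 259 to 340 CPM in brainstem and 170 to 227 in hippocampus. Choroid plexus markers were lower in 2 of 3 cases (median -1.46). Astrocyte markers had a median of -0.169, with 1 higher and 1 lower past the thresholds. Medians were above 0 for markers of neurons (0.202), microglia (0.132), oligodendrocyte precursors (0.375) and meningeal fibroblasts (0.21). The part of these cells in the difference of the synthesis enzymes was not tested. In whole tissue, fewer cells of a type and less RNA per cell cannot be told apart, nor can region and the separate dissection of each.

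**Figure D1:**
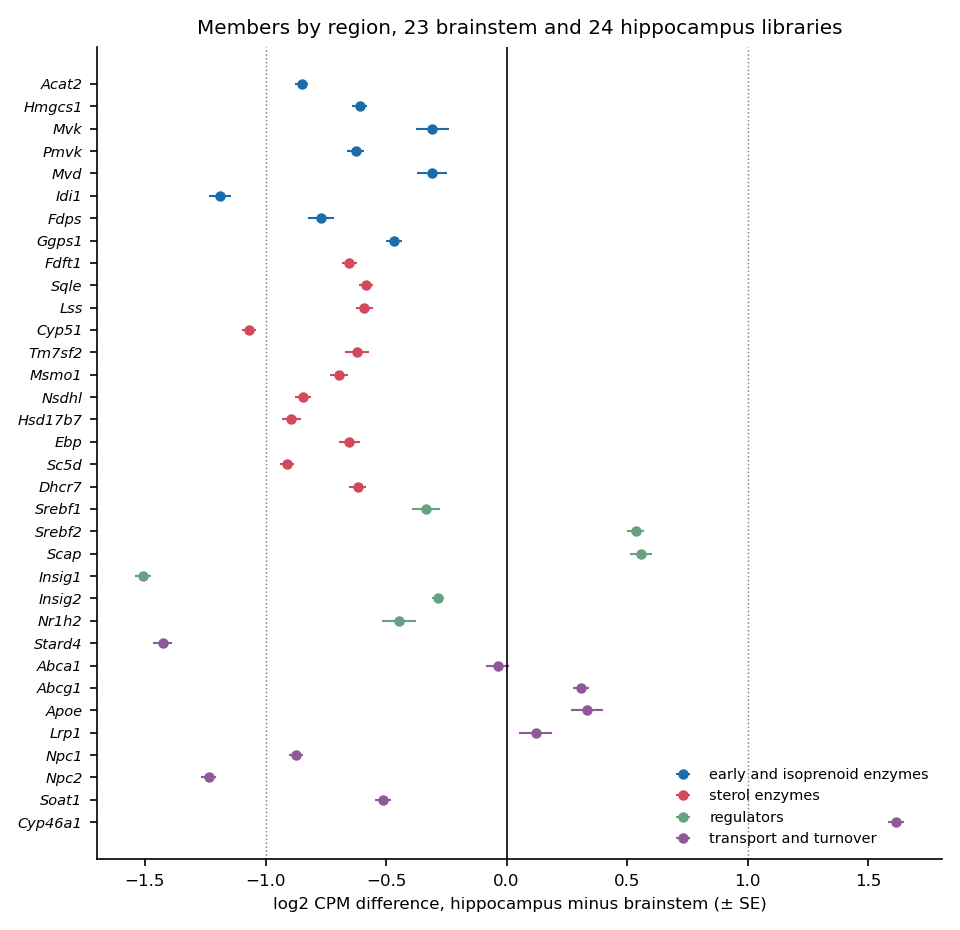
Log2 CPM difference of the 34 members between hippocampus (24 libraries) and brainstem (23 libraries), with standard errors, coloured by role; dotted lines mark a difference of 1 in either direction. All 19 synthesis enzymes lie left of 0, with Insig1 farthest left at -1.51 and Cyp46a1 farthest right at 1.61.

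High fat diet was compared with standard diet within each genotype and region, which asks whether a lifelong fat-rich diet alters these genes. A differentially expressed gene (DEG) needed an adjusted p of at most 0.05 and a log2 fold change of at least 0.3 in either direction. No member was a DEG in any of the 4 diet comparisons by edgeR's quasi-likelihood test, nor by DESeq2. Almost no other gene was: DEGs were 0% of genes for WT_HFD/WT_SD in brainstem, 0.0075% for TG_HFD/TG_SD in brainstem, and 0% for either genotype in hippocampus.

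At an unadjusted p of at most 0.05, 2 members were higher and 1 lower for WT_HFD/WT_SD in brainstem, beside 2.13% of genes higher and 3.3% lower. For TG_HFD/TG_SD in brainstem 2 were higher and 6 lower, beside 3.47% and 3.44%. In hippocampus, 1 was higher and 3 lower for WT_HFD/WT_SD, beside 3.85% and 2.56%. For TG_HFD/TG_SD in hippocampus 1 was higher and 9 were lower, beside 3.19% and 3.89%. No adjusted p of these members was below 0.214.

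The direction over the list was the same in TG of both regions. The median log2 fold change of the members for TG_HFD/TG_SD was -0.03 in brainstem, with 25 of 34 below 0, and -0.06 in hippocampus, with 27 of 34 below 0. Medians of all genes were -0.0011 and -0.00217. For WT_HFD/WT_SD the members' median was -0.0132 in brainstem (22 of 34 below 0) and -0.00603 in hippocampus (18 of 34), beside -0.0068 and 0.00481 for all genes. These are shifts of a few percent, described without a test, since the members were chosen with earlier results known.

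Every role had a median below 0 in TG, and differences between roles were not tested. In hippocampus of TG, the median was -0.10 for the enzymes up to the isoprenoids (7 of 8 below 0), -0.06 for those from squalene onward (9 of 11), -0.04 for the regulators (5 of 6) and -0.01 for the transport genes (6 of 9). In brainstem of TG the medians were -0.09 (6 of 8 below 0), -0.06 (10 of 11), -0.04 (4 of 6) and -0.01 (5 of 9).

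Idi1 had the lowest p of the members in brainstem of TG. It had 120, 132 and 145 CPM in TG_SD and 89.3, 109 and 130 CPM in TG_HFD (lowest, median and highest of 6). Its log2 fold change was -0.19 (SE 0.043, unadjusted p = 0.000149, adjusted p = 0.214, edgeR's quasi-likelihood test). In WT brainstem it was at 106, 107, 110, 112 and 153 CPM on SD and at 100, 108 and 114 CPM on HFD. TG_SD was the highest of the 4 groups by median, but the ranges overlapped. Without surrogate variables the fold change of Idi1 was -0.28 (adjusted p = 0.756 by edgeR), and with no filter on low counts its adjusted p was 0.0449.

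Hmgcs1 had 279, 306 and 315 CPM in TG_SD and 249, 280 and 313 CPM in TG_HFD brainstem, or -0.11 in log2 fold change (SE 0.0419, adjusted p = 0.586 by edgeR). Msmo1 had 131, 149 and 162 CPM in TG_SD and 116, 136 and 143 CPM in TG_HFD (log2 fold change -0.09, SE 0.038, adjusted p = 0.657 by edgeR). Fdps, farnesyl diphosphate synthase, was the member with the largest value upward, with 5.84, 6.17 and 7.3 CPM in TG_SD and 6.05, 6.92 and 9.11 CPM in TG_HFD (log2 fold change 0.29, SE 0.108, adjusted p = 0.572 by edgeR). All 3 overlapped between the diets. Without surrogate variables Msmo1 was at -0.16 and Fdps at 0.17. The other members at an unadjusted p of at most 0.05 in brainstem of TG were Cyp51 (log2 fold change -0.11), Tm7sf2, a sterol reductase (-0.19), Sc5d (-0.08) and Lrp1 (0.14).

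In hippocampus of TG, Lss, the cyclase that forms lanosterol, had 23.8, 25.8 and 28.4 CPM on SD and 19.8, 22.9 and 24.1 CPM on HFD. Its log2 fold change was -0.21 (SE 0.0579, unadjusted p = 0.0012, adjusted p = 0.30 by edgeR). Idi1 had 46.8, 54.2 and 58.8 CPM on SD and 38.2, 46.6 and 53.1 CPM on HFD (log2 fold change -0.20, SE 0.057, adjusted p = 0.304 by edgeR). The highest libraries on HFD reached into the range on SD in both enzymes.

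Insig1 had 48.7, 57.9 and 63 CPM in TG_SD and 45, 48.9 and 53.2 CPM in TG_HFD hippocampus (log2 fold change -0.19, SE 0.0631, adjusted p = 0.491 by edgeR). Msmo1 had 70.4, 87.7 and 98.1 CPM in TG_SD and 65.9, 80 and 87.9 CPM in TG_HFD (log2 fold change -0.16, SE 0.0567, adjusted p = 0.533 by edgeR). Again the diets overlapped. Msmo1 was at -0.08 without TG_SD replicate 4 (adjusted p = 0.925 by edgeR), and at -0.10 with the replicate number as a block. The remaining members at an unadjusted p of at most 0.05 there were Sqle (-0.15), the squalene epoxidase, Lrp1 (-0.15), Hmgcs1 (-0.11), Fdft1 (-0.11), the squalene synthase, Mvd (-0.20), and upward Abcg1 (0.08). Markers of astrocytes, the cells that make much of the adult brain's cholesterol, were lower beside them in 7 of 8 cases, with a median log2 fold change of -0.11. Of these, 5 had an unadjusted p of at most 0.05 and none was a DEG, and their summed level was 4270 to 5090 CPM in TG_SD and 4150 to 5070 in TG_HFD. Endothelial markers were lower in 4 of 6 cases (median -0.04), microglia markers in 5 of 8 (-0.02), hippocampus markers in 5 of 6 (-0.10) and choroid plexus markers in 3 of 3 (-0.51). Oligodendrocyte markers were lower in 5 of 12 cases (median 0.0129), neuron markers in 4 of 8 (-0.00396) and oligodendrocyte precursor markers in 2 of 4 (-0.0104). In brainstem of TG, astrocyte markers were lower in 7 of 8 cases (median -0.04), endothelial markers in 6 of 6 (-0.05) and oligodendrocyte markers in 9 of 12 (-0.0257). Microglia markers (0.0271) and neuron markers (0.00795) were each lower in 3 of 8 there, and oligodendrocyte precursor markers in 2 of 4 (0.0069). Their part in the values of the enzymes was not tested.

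In WT brainstem, the member with the lowest p was Lss, with 38.4, 38.9, 40, 42.1 and 48.3 CPM on SD and 32.9, 36 and 44.5 CPM on HFD (log2 fold change -0.20, SE 0.0728, adjusted p = 0.896 by edgeR). Npc1, the lysosomal cholesterol transporter, had 71.5, 86.4, 91.5, 92.4 and 93.1 CPM on SD and 80.5, 89.8 and 94.5 on HFD (log2 fold change 0.08, SE 0.0379, adjusted p = 0.91 by edgeR). Cyp46a1 had 28.4, 31.1, 31.9, 33.4 and 37.1 CPM on SD and 33.4, 37.1 and 42.3 on HFD (log2 fold change 0.12, SE 0.0577, adjusted p = 0.918 by edgeR). Pmvk, phosphomevalonate kinase, had 34.3, 36.9, 37.4, 39.2 and 39.8 CPM on SD and 32.6, 36.3 and 42.1 on HFD (log2 fold change -0.13, SE 0.0641, adjusted p = 0.921 by edgeR). None of the 4 separated the diets. Without surrogate variables Npc1 was at 0.03, Cyp46a1 at 0.22 and Pmvk at -0.04.

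In WT hippocampus, Stard4 had 21.6, 22.4 and 30.6 CPM on SD and 19.1, 20.2 and 22.2 CPM on HFD (log2 fold change -0.21, SE 0.0766, adjusted p = 0.72 by edgeR). Dhcr7, which catalyses a last reduction to cholesterol, had 26.6, 31.5 and 35.9 CPM on SD and 27.5, 29.4 and 33 on HFD (-0.15, SE 0.058, adjusted p = 0.722 by edgeR). Nsdhl, of the demethylation steps, had 21.1, 23.9 and 28.2 CPM on SD and 20.7, 22.1 and 23.6 on HFD (-0.18, SE 0.07, adjusted p = 0.722 by edgeR). Scap had 48, 52.7 and 56.4 CPM on SD and 52.1, 62.5 and 66.2 on HFD (0.11, SE 0.0496, adjusted p = 0.745 by edgeR). Here too every pair of ranges overlapped. Without WT_SD replicate 3, which had the highest Stard4 level, Stard4 was at -0.04 (adjusted p = 0.952 by edgeR), Nsdhl at -0.09 and Dhcr7 at -0.10. Without WT_HFD replicate 8 Dhcr7 was at -0.09 and Scap at 0.18, and without surrogate variables Scap was at 0.22. The slope on GC content had a median of 0.0232 in WT_SD and 0.118 in WT_HFD hippocampus, and its part was not tested. No member had diets without overlap in any of the 4 comparisons, beside 0.427% of genes for WT and 0.172% for TG in brainstem, and 0.467% and 0.0226% in hippocampus.

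Beyond the members, 45 other genes of sterol handling were listed, of which 41 were tested in brainstem and 40 in hippocampus. None was a DEG for diet by edgeR. At an unadjusted p of at most 0.05, brainstem of WT had 1 higher and 0 lower, brainstem of TG 1 and 1, hippocampus of WT 1 and 0, and hippocampus of TG 1 and 3. The genes with the lowest p were Cyp27a1, a sterol hydroxylase (log2 fold change 0.15, adjusted p = 0.91), and the sterol sensor Osbp (0.09) in WT brainstem, and in TG brainstem Pltp, a phospholipid transfer protein (-0.13, adjusted p = 0.70), and Syvn1 (0.13), a ubiquitin ligase of the endoplasmic reticulum. In WT hippocampus they were Aup1 (0.16, adjusted p = 0.722) and Pltp (-0.12). In TG hippocampus they were Pltp (-0.18, adjusted p = 0.336) and Lcat (-0.17, adjusted p = 0.65), which esterifies cholesterol on lipoproteins.

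**Figure D2:**
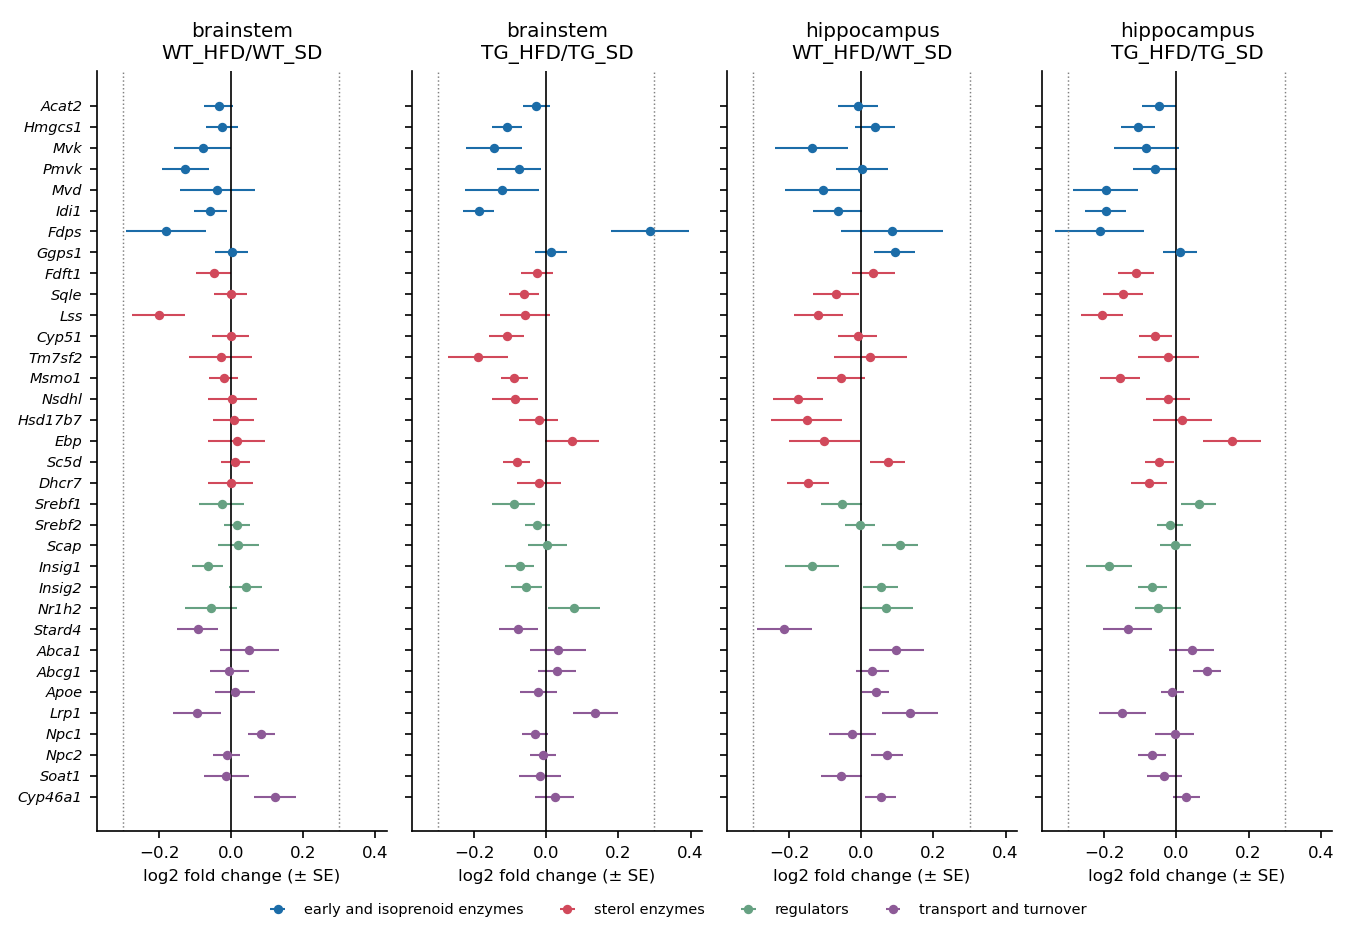
Log2 fold change with standard error of the 34 members for HFD against SD in each genotype and region, coloured by role; dotted lines mark the DEG threshold of 0.3. Most synthesis enzymes lie slightly left of 0 in both TG panels, and no member passed the test in any panel.

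The interaction of genotype and diet asks whether the response to diet differed between TG and WT. No member passed it in either region by edgeR or DESeq2, beside 0.0075% of genes in brainstem and 0% in hippocampus. At an unadjusted p of at most 0.05, 2 members were positive and 1 negative in brainstem, beside 2.79% and 2.04% of genes, and 0 were positive and 2 negative in hippocampus, beside 2.31% and 3.67%. The lowest p belonged to Fdps in brainstem (interaction 0.47 on the log2 scale, adjusted p = 0.993) and to Lrp1 in hippocampus (-0.29, adjusted p = 0.684).

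TG was then compared with WT on each diet. No member was a DEG in any of these 4 comparisons by edgeR or DESeq2. All-gene DEGs were 0.142% for TG_SD/WT_SD and 0.0525% for TG_HFD/WT_HFD in brainstem, and 0.098% and 0.226% in hippocampus. At an unadjusted p of at most 0.05, 3 members were higher and 5 lower for TG_SD/WT_SD in brainstem (5.25% and 5.25% of genes), and 2 higher and 3 lower for TG_HFD/WT_HFD (3.37% and 2.23%). In hippocampus, 0 were higher and 7 lower for TG_SD/WT_SD (4.84% and 4.23% of genes), and 2 higher and 7 lower for TG_HFD/WT_HFD (4.42% and 6.92%). The count of 0 for TG_HFD/WT_HFD in hippocampus rested on the fit. It was 2 with 0 surrogate variables (Srebf2 and Nr1h2), 5 with 2 (Mvk, Srebf2, Nr1h2, Apoe and Lrp1), 5 without WT_HFD replicate 8 (Hmgcs1, Fdft1, Sqle, Srebf2 and Lrp1) and 2 without WT_HFD replicate 6 (Fdft1 and Lrp1). With 0 or 2 surrogate variables DEGs rose steeply over all genes as well, by the counts given under the dependence on processing. Whether members were called more often than other genes in these fits was not tested. All-gene counts of the fits without a replicate are not reported here.

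Members with the lowest p in hippocampus on HFD were Npc2 and Hmgcs1. Npc2 had 45.6, 46.6 and 49.4 CPM in WT_HFD and 39.9, 43.4 and 47 CPM in TG_HFD. At a log2 fold change of -0.24 (SE 0.0518), Npc2 passed the p-value by edgeR (adjusted p = 0.0277) and missed the threshold of 0.3. Npc2 kept an adjusted p of at most 0.05 in 7 of 12 fits with 1 library left out and lost it without TG_HFD replicates 5, 6 or 7 or WT_HFD replicates 6 or 8 (adjusted p up to 0.148 by edgeR). It was also lost with the replicate number as a block (0.123), by DESeq2 (0.0549) and without surrogate variables (log2 fold change -0.11, adjusted p = 0.332). Hmgcs1 had 176, 183 and 194 CPM in WT_HFD and 155, 169 and 187 CPM in TG_HFD (log2 fold change -0.27, SE 0.0643, adjusted p = 0.0556 by edgeR), and -0.12 without surrogate variables (adjusted p = 0.284). Hmgcs1 passed the adjusted p, but not the fold threshold, by DESeq2 (0.0348). By edgeR the same held without TG_HFD replicate 4 (0.0416), TG_HFD replicate 5 (0.0498) or WT_HFD replicate 5 (0.0299). Without WT_HFD replicate 8 it was a DEG (-0.30, adjusted p = 0.0215 by edgeR).

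Fdft1, Sqle, Srebf2 and Stard4 were the 4 members whose libraries did not overlap between TG_HFD and WT_HFD in hippocampus, all lower in TG, beside 4.15% of all genes. Fdft1 had 71.6, 74.6 and 77.2 CPM in WT_HFD and 54.5, 65.7 and 69.5 in TG_HFD (log2 fold change -0.28, SE 0.0696, adjusted p = 0.0731 by edgeR). Sqle had 55.4, 59.9 and 64.6 CPM in WT_HFD and 47.2, 48.8 and 55.3 in TG_HFD (-0.22, adjusted p = 0.235 by edgeR). Srebf2 had 168, 196 and 210 CPM in WT_HFD and 144, 149 and 168 in TG_HFD (-0.17, adjusted p = 0.131 by edgeR), the closest values being equal after rounding. Stard4 had 19.1, 20.2 and 22.2 CPM in WT_HFD and 17.3, 17.9 and 19.1 CPM in TG_HFD, also touching after rounding. Gaps between the groups were thus narrow.

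The dependence of counts on base composition moved with this comparison. Its slope, in log2 units per 10% GC, was -0.0197 to 0.173 in WT_HFD (median 0.118) and -0.125 to 0.00523 in TG_HFD (median -0.0553) of hippocampus. GC content was 56.3% in Mvk, 57.9% in Srebf2 and Lrp1, 59.5% in Apoe and 60.6% in Nr1h2. These members were called with 0 or 2 surrogate variables, and Scap (59.1%) and Mvd (59%) were not. Hmgcs1, Sqle and Fdft1, called with a WT_HFD replicate left out, were at 43.1%, 48.6% and 51.8%. The part of base composition in these calls was not tested. A fit with a GC correction in place of the surrogate variables changed both choices together. There Npc2 was at -0.09 (adjusted p = 0.565 by edgeR), close to its -0.11 with the surrogate variables alone removed, and Sqle and Srebf2 passed the adjusted p but not the fold threshold. Those fits of Npc2, at -0.09 and -0.11, differ in the GC correction alone. A GC correction with the surrogate variables kept was not run, and the part of the GC shift in the main fit was not tested. Markers of several cell types were lower beside it, and none was a DEG. Astrocyte markers were lower in 6 of 8 cases (median log2 fold change -0.12, 4 at an unadjusted p of at most 0.05), endothelial markers in 6 of 6 (-0.16, 2 of them), microglia markers in 7 of 8 (-0.10, 2 of them), oligodendrocyte markers in 8 of 12 (-0.08, 0 of them) and hippocampus markers in 6 of 6 (-0.11, 0 of them). Neuron markers were lower in 4 of 8 cases, with a median of 0.0127. Summed astrocyte markers were at 3980 to 4740 CPM in WT_HFD and 4150 to 5070 in TG_HFD, and endothelial markers at 193 to 217 and 170 to 203 CPM. Their part in the values of the members was not tested.

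On standard diet, Srebf2 in hippocampus had 162, 183 and 199 CPM in WT_SD and 139, 156 and 167 CPM in TG_SD (log2 fold change -0.16, SE 0.0379, adjusted p = 0.0926 by edgeR). Stard4 had 21.6, 22.4 and 30.6 CPM in WT_SD and 16.5, 20.1 and 22.2 in TG_SD (-0.24, SE 0.0697, adjusted p = 0.221 by edgeR). The genotypes overlapped in both. Srebf2 passed the adjusted p, but not the fold threshold, by DESeq2 (adjusted p = 0.0413) and by edgeR with no filter (0.0161) or the replicate block (0.0471). It also passed without TG_SD replicate 4 (0.0155), TG_SD replicate 5 (0.0287) or WT_SD replicate 8 (0.0352). Over the other fits its adjusted p reached 0.372. Stard4 in hippocampus passed as a DEG only when TG_SD replicate 5 (-0.33, adjusted p = 0.0373 by edgeR) or WT_SD replicate 8 (-0.37, adjusted p = 0.0352) was left out, among the 12 libraries tried. Stard4 was also among the lowest p in brainstem. There it had 54.5, 60.5, 62.4, 64.9 and 67.2 CPM in WT_SD and 52.1, 56.2 and 57.6 in TG_SD (-0.18, SE 0.0526, adjusted p = 0.178 by edgeR), and 47.1, 57.3 and 58.7 CPM in WT_HFD and 47.7, 51.7 and 63.3 in TG_HFD (-0.16, SE 0.065, adjusted p = 0.822 by edgeR). The brainstem ranges of Stard4 overlapped on either diet, and without surrogate variables its change on HFD was -0.02. In hippocampus on SD it was -0.14 without TG_SD replicate 7.

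Fdps in brainstem was at 7.22, 7.45, 7.96, 8.11 and 8.17 CPM in WT_SD and at 5.84, 6.17 and 7.3 CPM in TG_SD (log2 fold change -0.34, SE 0.105, adjusted p = 0.208 by edgeR) with the highest TG_SD library just above the lowest WT_SD library. Hsd17b7, a ketoreductase of the demethylation steps, had 34.4, 36.5 and 42.3 CPM in WT_HFD and 33.5, 34.2 and 37 in TG_HFD brainstem (-0.18, SE 0.0643, adjusted p = 0.811 by edgeR), and was at -0.09 without surrogate variables and -0.10 without WT_HFD replicate 8. Genotypes without overlap were found for 0 members in the other 3 comparisons, beside 0.532% of genes on SD and 0.682% on HFD in brainstem and 0.264% on SD in hippocampus. The comparisons of diet and of genotype share groups, so their values are not independent of each other.

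**Figure D3:**
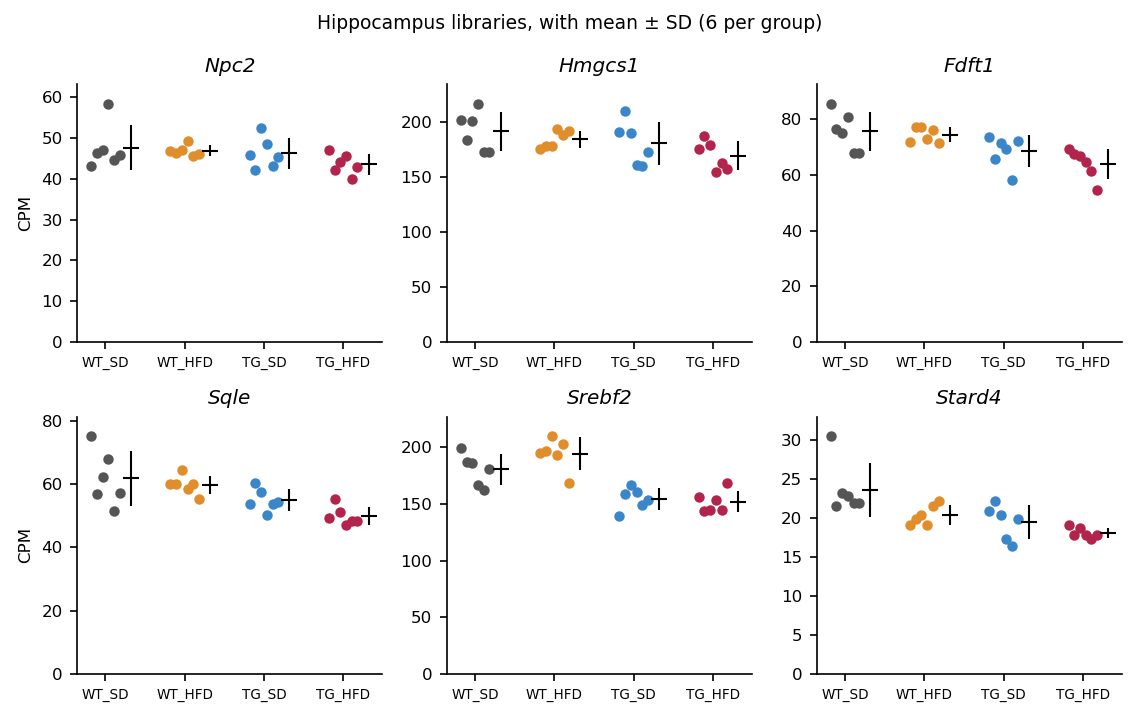
CPM of Npc2, Hmgcs1, Fdft1, Sqle, Srebf2 and Stard4 in single hippocampus libraries by group, with mean and SD (6 per group). In Fdft1, Sqle, Srebf2 and Stard4 every TG_HFD point lies below every WT_HFD point, with the closest points nearly level in Sqle, Srebf2 and Stard4.

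Libraries of brainstem and hippocampus carry numbers in their labels, and 17 pairs share genotype, diet and number. For each gene, the deviation of a library's log2 CPM from the mean of its group was correlated over the 17 pairs between the regions, and the pairing was permuted within groups. The question is whether a mouse, or whatever an equal number marks, was high or low in both regions. Nothing in the labels says that equal numbers are the same mouse. The members' median Pearson r was 0.337, with 30 of 34 (88.2%) above 0, where all 12619 genes had a median of 0.202 and 73.6% above 0.

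At an unadjusted permutation p of at most 0.05 with a positive r there were 9 members (26.5%), beside 12.1% of genes. After Benjamini-Hochberg adjustment over 12619 genes no member and no other gene (0%) reached 0.05. Within the list the median r was 0.39 for enzymes up to the isoprenoids, 0.309 from squalene onward, 0.309 for regulators and 0.356 for transport. The 40 other sterol genes had a median of 0.212, and markers of neurons 0.308, astrocytes 0.177, oligodendrocytes 0.119 and microglia -0.099.

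Msmo1, the sterol C4-methyl oxidase, had the highest r of the members and the rank 3 of 12619 genes. The library numbered 6 of WT_SD was high in both regions, with 174 CPM in brainstem and 101 CPM in hippocampus. The library numbered 8 of TG_HFD was low in both, with 116 and 65.9 CPM, and that numbered 7 of TG_SD was too, with 131 and 70.4 CPM. Pearson's r of Msmo1 was 0.946 and Spearman's rho 0.9, with a permutation p of 1e-05, the smallest that 100000 permutations can give, and an adjusted p of 0.0777. Without the 2 pairs farthest from the median in brainstem, r was 0.932, and 14 of 17 pairs lay on the same side of their group means in both regions.

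Sc5d, the lathosterol oxidase, ranked 5 of 12619. It was at 155 CPM in brainstem and 77.7 in hippocampus in WT_SD 6, at 150 and 76.0 CPM in TG_HFD 3, and at 119 and 63.2 CPM in TG_HFD 7. Its r was 0.937 and rho 0.907 (permutation p = 5e-05, adjusted p = 0.0777), with an r of 0.869 without the 2 farthest pairs. In Sc5d too, 14 of 17 pairs were on the same side in both regions.

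Idi1, the isomerase, ranked 14. It was at 153 CPM in brainstem and 62.6 in hippocampus in WT_SD 6, at 130 and 53.1 CPM in TG_HFD 3, and at 89.3 and 38.2 CPM in TG_HFD 8. Its r was 0.894 and rho 0.853 (permutation p = 8e-05, adjusted p = 0.0777), with r 0.815 without the 2 farthest pairs and 16 of 17 pairs of Idi1 on the same side. Fdft1 ranked 131, with r 0.77 and rho 0.691 (permutation p = 0.00242, adjusted p = 0.201), r 0.692 without the 2 farthest pairs and 13 of 17 pairs on the same side. Its levels reached from 91.2 CPM in brainstem and 54.5 in hippocampus in TG_HFD 8 to 131 and 80.7 CPM in WT_SD 6.

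Other members with a positive r at an unadjusted permutation p of at most 0.05 were Insig1 (r 0.76), Hmgcs1 (0.72), Cyp51 (0.657), Stard4 (0.597) and Abcg1 (0.471). An r of at least 0.7 was reached by 6 members and 2.67% of genes, and an r of at least 0.9 by 2 members and 0.0872% of genes. At the other end stood Mvk with r -0.146 (rho -0.0564, permutation p = 0.654, adjusted p = 0.894, r 0.314 without the 2 farthest pairs) and Hsd17b7 with r -0.0396 (rho -0.00735, permutation p = 0.888, adjusted p = 0.971, r 0.00124 without the 2 farthest pairs). Mvk in brainstem ranged from 8.28 CPM in TG_HFD 3 to 21.0 CPM in WT_HFD 4.

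The trend with GC content was subtracted from each library as a check. Then r was 0.878 for Msmo1, 0.874 for Idi1, 0.798 for Sc5d, 0.754 for Fdft1 and 0.723 for Insig1, while it was 0.508 for Hmgcs1 and 0.291 for Stard4. Leaving out single pairs kept r within 0.932 to 0.966 for Msmo1, 0.91 to 0.971 for Sc5d, 0.821 to 0.918 for Idi1 and 0.659 to 0.823 for Fdft1. WT_SD 6 had 16 of 19 enzymes above the group mean in brainstem and 17 of 19 in hippocampus, whereas TG_HFD 8 had 2 and 4, and WT_SD 7 had 3 and 3. Other pairs disagreed, such as TG_HFD 7 with 10 and 3 and WT_SD 4 with 6 and 11. The mean of the 19 enzymes was on the same side of the group mean in both regions in 11 of 17 pairs.

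**Figure D4:**
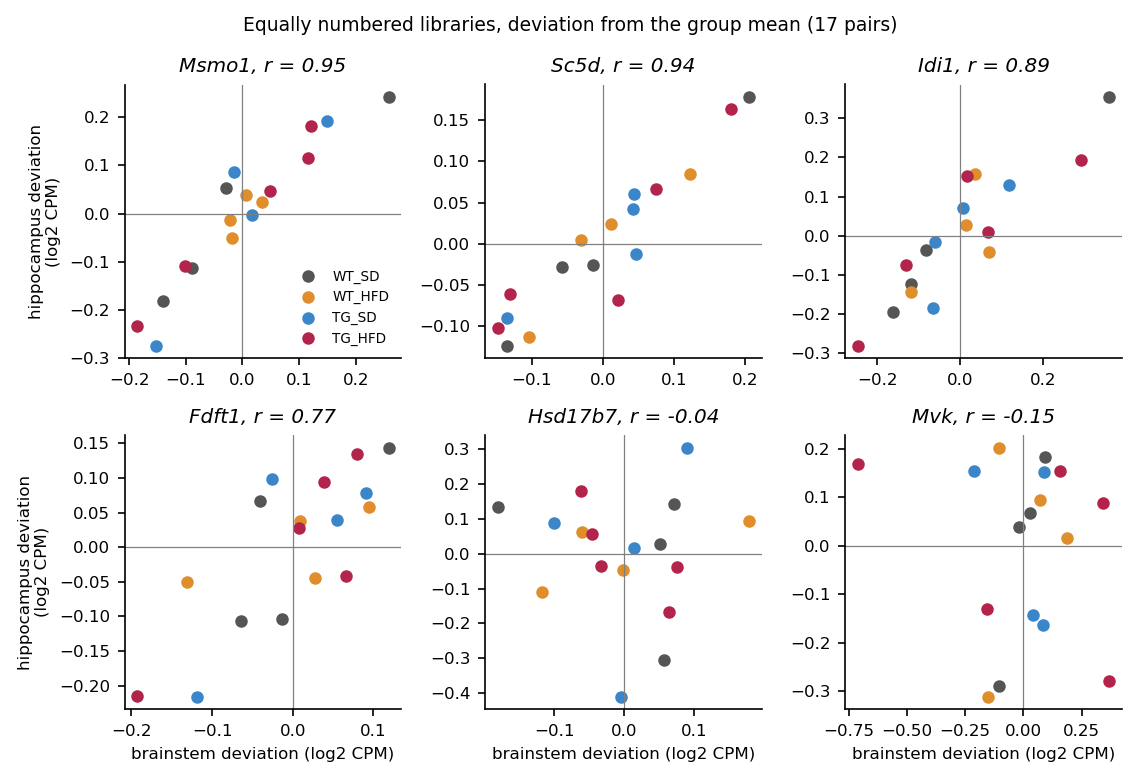
Deviation of log2 CPM from the group mean in brainstem (horizontal) and hippocampus (vertical) for members in the 17 equally numbered library pairs, coloured by group, with Pearson's r in each title. Points of Msmo1, Sc5d and Idi1 follow a rising line with r of 0.946, 0.937 and 0.894, and Mvk shows none (r -0.146).

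**Figure D5:**
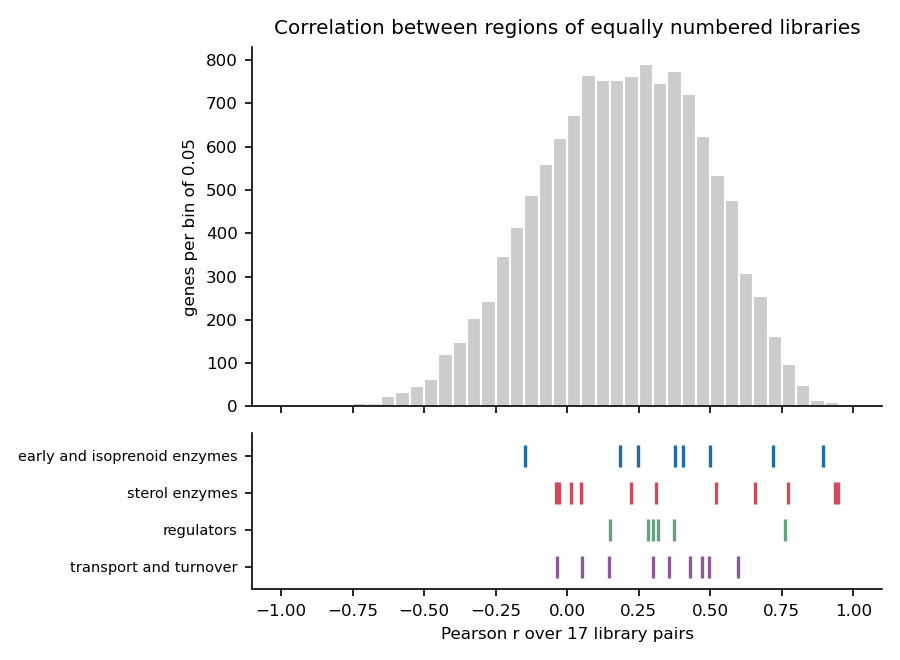
Distribution of Pearson's r over 17 library pairs for 12619 genes in bins of 0.05 (bars), with the 34 members as vertical ticks by role below. Most members lie to the right of 0, and Msmo1, Sc5d and Idi1 lie in the far right tail of all genes.

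Within a region, the synthesis enzymes also tended to vary together from library to library after removal of group means, though not all of them did. The median Pearson r over the 171 pairs of the 19 enzymes was 0.167 in 23 brainstem libraries and 0.30 in 24 hippocampus libraries, where pairs of all genes had medians of -0.00296 and -0.00212. With the GC trend subtracted the enzymes' medians were 0.161 and 0.304. Without that subtraction, the lower quartile of the enzyme pairs was -0.109 in brainstem and 0.0243 in hippocampus. The median r with the other enzymes was below 0 in brainstem for Mvk (-0.0967), Lss (-0.0666), Ggps1 (-0.0424) and Hsd17b7 (-0.0327). With the GC trend subtracted these were at 0.0253, -0.1, -0.215 and -0.0713 in the same order. In hippocampus the median r was below 0 for Ggps1 (-0.199), Fdps (-0.146) and Hsd17b7 (-0.0475). There the values were -0.082, -0.193 and -0.00752 with the GC trend subtracted. All of these values share library, depth and base composition, and are given as a description.

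Insig1 followed the enzymes, with a median r of 0.278 in brainstem and 0.43 in hippocampus. The liver X receptor targets did not share a direction in hippocampus. Abca1 had a median r of -0.25 in brainstem and -0.338 in hippocampus with the enzymes, and Abcg1 one of -0.325 and -0.324, while Apoe was at -0.225 and 0.411. In brainstem Scap (-0.29), Srebf2 (-0.284) and Lrp1 (-0.26) were as low as Abca1, and in hippocampus they were at 0.155, 0.308 and 0.0287. With the GC trend subtracted, Abca1 was at -0.266 and -0.278, Abcg1 at -0.123 and -0.357 and Apoe at -0.0773 and 0.406. The median r of the enzymes with cell type markers in hippocampus was 0.30 for astrocyte, 0.25 for microglia, 0.237 for endothelial, 0.264 for meningeal fibroblast and -0.0245 for oligodendrocyte markers. In brainstem it was -0.087, -0.0764, -0.0443, 0.164 and 0.0612 in the same order.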

How the data were processed

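RNA of brainstem and hippocampus was sequenced from 47 poly(A)-selected, single-end libraries. Per the labels and the study's methods, the authors used FastQC 0.11.9 and STAR 2.7.9a with GRCm39 and the transgene's sequence, and deposited raw counts per gene, without normalization, in 1 table per region. The version DESeq2 1.32.0 is also named. The transgene's level is not reported here. The counting step is not given in the sources used here.

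Samples were grouped by region, genotype and diet as labelled. Symbols, GC content and exon lengths came from GENCODE for GRCm38, and promoters from RefSeq. Genes whose mean count in a region was 50 or more were tested with edgeR 4.0.16 (quasi-likelihood test, TMM) in R 4.3.3 on the counts, with 4 surrogate variables per region from sva 3.50.0 and Benjamini-Hochberg adjustment over all genes. The regions were compared in 1 model without surrogate variables. Log2 CPM used a prior count of 2. Equally numbered libraries were compared by 100000 two-sided permutations within groups, also in R 4.3.3. Alternatives included DESeq2 1.42.0, other normalizations, filters, numbers of surrogate variables, a GC correction, the replicate number as a block and single libraries left out. Scripts were tested on simulated data. Described in full were the 4 members with the lowest p per diet comparison, 2 per genotype comparison, the 6 largest region differences, and the 4 highest and 2 lowest r. Members, lists and this rule were chosen with earlier results of these data known. Naming Fdft1, Sqle, Srebf2 and Stard4 for TG_HFD against WT_HFD, and members at an unadjusted p of at most 0.05, came after their values were seen. Promoters are not reported here for 6 members.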

Additional observations from a re-analysis of the deposited data

Results flagged for a closer look

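In 46 groups of 5 or 6 libraries behind the named members, 2 had a single library set apart from the rest by the gap to its nearest neighbour over the range, and chance gives about 1 in 20. Lss in brainstem was at 44.5 CPM in WT_HFD replicate 7, with the other 5 between 32.9 and 37.2 (gap over range 0.629), and without it the fold change of Lss for WT_HFD/WT_SD was -0.25 on the log2 scale. Stard4 in hippocampus was at 30.6 CPM in WT_SD replicate 3, with the other 5 between 21.6 and 23.2 (gap over range 0.822), and without it the fold change of Stard4 was -0.04 for WT_HFD/WT_SD and -0.23 for TG_SD/WT_SD. No cause was tested for either.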

How the results depend on the processing

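Counts of members called as DEGs were 0 in the 10 comparisons within regions, and 5 settings gave other counts. For TG_HFD/WT_HFD in hippocampus the count was 1 with no fold threshold (Npc2), 2 with 0 surrogate variables, 5 with 2 and 1 with no filter on low counts (Lrp1). All-gene DEGs, of 13272 genes, went from 30 to 515 with 0 and 634 with 2 surrogate variables. For TG_HFD/WT_HFD in brainstem the count of members was 1 with no filter (Tm7sf2). All-gene counts with no filter or with no fold threshold are not reported here, so these calls cannot be set against them. Leaving out single libraries gave 0 to 5 members for TG_HFD/WT_HFD and 0 to 1 for TG_SD/WT_SD in hippocampus, and the same count as with all libraries in the other comparisons. The cause was not tested.

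Over all alternatives the members' median for TG_HFD/TG_SD ran from -0.06 to -0.03 in brainstem and from -0.07 to -0.03 in hippocampus, while for WT_HFD/WT_SD it ran from -0.03 to 0.000529 and from -0.04 to 0.03. Of 564 values of named members under alternatives, 559 kept direction and side of the threshold and 0 reversed. Among the others, Cyp51 between regions was at -0.99 with no filter, under the threshold of 1. The median r of equally numbered libraries was 0.266 to 0.449 with 1 group left out, 0.268 to 0.402 with 1 pair left out, 0.283 after GC correction and 0.331 by Spearman.

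With the replicate number as a block, 0 members were called in each comparison within a region and 6 between the regions, so the block changed no DEG call. At the adjusted p alone, Npc2 for TG_HFD/WT_HFD in hippocampus was lost with the block (0.123) and Srebf2 for TG_SD/WT_SD in hippocampus passed (0.0471). Whether equal numbers pair libraries was checked over all genes. Across regions, deviations of equally numbered libraries had a median r of 0.165 (-0.09 to 0.557, over 0.1 in 12 of 17), different numbers one of -0.0221, and 10 of 17 brainstem and 7 of 17 hippocampus libraries correlated best with their own number. Within regions, equal numbers in other groups had a median of 0.0392 in brainstem and 0.0651 in hippocampus, and different numbers medians of -0.026 and -0.0414. An r over 0.1 was reached by 10 of 26 equal and 60 of 172 different pairs in brainstem. In hippocampus it was reached by 15 of 36 and 43 of 180. Libraries of other groups are not the same mouse, and what an equal number shares between groups was not tested. With all 1658880 pairings enumerated, chosen after seeing the data, exact adjusted p-values were 0.0685 for Msmo1 and Sc5d and 0.0938 for Idi1.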
